A study of Saccharomyces cerevisiae with 2 samples.

Results

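The genes that let yeast cells find, bind and fuse with a partner were examined in RNA-seq of S. cerevisiae with and without NPL3. They are 10 of the 7127 features of the count table: the pheromone receptor genes STE2 and STE3, the agglutinin genes AGA1, AGA2 and SAG1, the pheromone-handling genes STE6, BAR1 and AFB1, the fusion gene FUS1 and the a-cell gene ASG7. They were chosen by name with their counts in these same libraries already known, so the npl3Δ and wild type values of the 10 genes are a description and no test was run on them. The mutant was npl3Δ, a deletion of the gene for the mRNA-binding guard protein Npl3, and it was set against wild type, with 1 library of each. Both strains were grown at 25 °C to the same density, and total RNA (200 ng) was sequenced without depletion of rRNA. The labels give no mating type. The study describes its strains as mainly of the BY4741 background and lists strains of both mating types, and the sources used here do not name the strains that were sequenced. Other differences between the strains therefore cannot be told apart from the deletion, and in bulk RNA fewer cells of a type cannot be told apart from less RNA per cell.

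Haploid yeast exists as a cells and α cells. Each type secretes its own pheromone and carries a surface receptor for the pheromone of the other, and both receptors feed the same G protein and kinase cascade, which ends at the transcription factor Ste12. In α cells the protein α2, together with Mcm1, keeps a-specific genes off, and α1, again with Mcm1, turns α-specific genes on. By this background STE2, AGA2, BAR1, STE6 and ASG7 belong to a cells, and STE3, SAG1 and AFB1 belong to α cells. AGA1 and FUS1 are taken as genes expressed in both.

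The stretches of promoter below are shown because they hold matches to sites of the regulators named above. The counts of the a-cell genes other than ASG7 and those of the α-cell genes differed between the libraries in opposite directions. The part of the sites in this was not tested. The stretches were cut from the RefSeq R64 genome, which is the sacCer3 build of the count table. The first set shows the a-cell genes, each read 5′ to 3′ on the strand on which the α2 half-site CATGTAA runs forward. Capitals mark that half-site and the CC and GG of an Mcm1 box, which is CC and GG with 6 bases between them.
STE2: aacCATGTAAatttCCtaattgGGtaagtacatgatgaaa
AGA2: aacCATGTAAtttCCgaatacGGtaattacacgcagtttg
BAR1: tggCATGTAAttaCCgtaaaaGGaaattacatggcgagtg
STE6: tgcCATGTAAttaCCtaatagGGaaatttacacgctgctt
ASG7: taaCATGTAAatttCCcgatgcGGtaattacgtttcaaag
In all 5 the Mcm1 box began 10 bases (AGA2, BAR1, STE6) or 11 bases (STE2, ASG7) after the first base of the half-site. The STE2 stretch lies at chrVI:82348-82387 on the plus strand and that of AGA2 at chrVII:437095-437134 on the minus strand. BAR1 has it at chrIX:322075-322114 on the plus strand and STE6 at chrXI:46471-46510 on the minus strand. In ASG7, at chrX:101902-101941, the half-site lies on the plus strand while the gene is on the minus strand. The search was for exact letters only, and BAR1 carries the half-site a second time on the other strand of the same stretch. Near-matches on the far side of the Mcm1 box in the other genes were not searched for.

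The second set shows the α-cell genes, with the α1 site CAATGNCA in capitals for SAG1 and STE3, and with the CC and GG of overlapping Mcm1 boxes in capitals for AFB1, in which no α1 site was found.
SAG1: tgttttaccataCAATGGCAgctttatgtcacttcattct
STE3: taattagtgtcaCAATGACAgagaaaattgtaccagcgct
AFB1: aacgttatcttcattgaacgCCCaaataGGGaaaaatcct
These lie at chrX:445104-445143 on the minus strand, chrXI:114948-114987 on the plus strand and chrXII:229786-229825 on the minus strand. The third set shows the genes of both cell types with the pheromone response element TGAAACA, the site of Ste12, in capitals.
FUS1: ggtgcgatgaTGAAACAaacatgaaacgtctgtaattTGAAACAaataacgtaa
AGA1: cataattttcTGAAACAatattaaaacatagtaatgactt
They lie at chrIII:71606-71659 and chrXIV:703487-703526, both on the plus strand, and FUS1 holds the element 2 times within this stretch.

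The libraries were of unequal size. Counts outside the rRNA summed to 6674796 in npl3Δ and 4799318 in wild type, and all ratios below were scaled by these sums. NPL3 itself (YDR432W) had 3 counts in npl3Δ and 1345 in wild type. Intervals are 95% exact binomial or Poisson intervals. They cover counting error only, and with 1 library per genotype no difference has a replicate check. Reads were not tagged by molecule, so PCR copies may enter the counts, and the intervals may then be too narrow even for counting error. Of the 10 genes, 9 had at least 10 counts in the libraries together, and ASG7 with 8 did not. Over the 6118 genes that passed this filter the median log2 ratio was 0.02, and 95% of them lay between -1.27 and 1.90.

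The receptor genes had opposite values. STE2 (YFL026W, chromosome VI, 82580 to 83875), which encodes the α-factor receptor of a cells, had 8 counts in npl3Δ and 774 in wild type. After scaling this was 0.00743 times the wild type value (95% interval 0.00320 to 0.0147), the fifth lowest log2 ratio of all genes tested at -6.97. STE3 (YKL178C, chromosome XI, 113215 to 114627), the a-factor receptor of α cells, had 1326 counts in npl3Δ and 6 in wild type. Its scaled ratio was 159 (72.8 to 434), or 7.21 on the log2 scale, and 2 genes of the 6118 had a higher one. STE3 thus held 99.4% (98.8% to 99.7%, Clopper-Pearson) of the receptor counts in npl3Δ and 0.769% (0.283% to 1.67%) in wild type. Each library held nearly all of its receptor counts in one of the receptor genes, and it was a different gene in each.

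The agglutinins hold mating cells together. SAG1 (YJR004C, chromosome X, 442909 to 444861) encodes α-agglutinin, the adhesin on the surface of α cells. It had 4955 counts in npl3Δ, the most of the 10 genes, and 81 in wild type, a ratio of 44.0 (35.3 to 55.5). AGA2 (YGL032C, chromosome VII, 436570 to 436833), the binding subunit of a-agglutinin, had 4 counts in npl3Δ and 90 in wild type, a ratio of 0.0320 (0.00852 to 0.0847). Of the counts of SAG1 and AGA2 together, SAG1 held 99.9% (99.8% to 99.98%) in npl3Δ and 47.4% (39.7% to 55.1%) in wild type. These shares are of counts and carry the lengths of the genes, 1953 bases for SAG1 and 264 for AGA2. AGA1 (YNR044W, chromosome XIV, 703699 to 705876) encodes the anchor of a-agglutinin in the cell wall, to which Aga2 is joined by disulfide bonds. It did not go with AGA2: it had 1893 counts in npl3Δ and 213 in wild type, a ratio of 6.39 (5.54 to 7.40). Levels per length are given in RPKM, here counts per kb of gene length scaled to 1000000 counts outside the rRNA. On this scale SAG1 stood at 380 and AGA2 at 2.27 in npl3Δ, against 8.64 for SAG1 and 71.0 for AGA2 in wild type. AGA1 stood at 130 in npl3Δ, where AGA2 stood at 2.27, while in wild type AGA1 stood at 20.4 and AGA2 at 71.0.

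Another group acts on the pheromones themselves. STE6 (YKL209C, chromosome XI, 42423 to 46295), the ABC transporter that exports a-factor, had 40 counts in npl3Δ and 1068 in wild type, a ratio of 0.0269 (0.0191 to 0.0369). BAR1 (YIL015W, chromosome IX, 322342 to 324105), a secreted aspartyl protease that degrades α-factor, had 12 counts in npl3Δ and 374 in wild type, a ratio of 0.0231 (0.0118 to 0.0408). AFB1 (YLR040C, chromosome XII, 228908 to 229582), whose product acts as a barrier to a-factor, had 1076 counts in npl3Δ and 44 in wild type, a ratio of 17.6 (13.0 to 24.3). The gene that removes the pheromone of the opposite type thus followed the receptor for that pheromone in both libraries. AFB1 held 98.9% (98.1% to 99.4%) of the counts of AFB1 and BAR1 in npl3Δ and 10.5% (7.75% to 13.9%) in wild type, again without regard to length (675 bases for AFB1 and 1764 for BAR1).

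FUS1 (YCL027W, chromosome III, 71803 to 73341), a membrane protein needed for cell fusion and a standard reporter of the pheromone response, had 206 counts in npl3Δ and 47 in wild type. Its ratio of 3.15 (2.29 to 4.42), or 1.65 on the log2 scale, was the one nearest to no change among the 9 genes with at least 10 counts, with 204 of the 6118 genes above it. ASG7 (YJL170C, chromosome X, 101150 to 101779), which acts on signalling by the G protein subunit Ste4, had 3 counts in npl3Δ and 5 in wild type. With a ratio of 0.431 and an interval of 0.0670 to 2.22, a difference in ASG7 was not detectable at this depth, although its promoter holds the same operator as those of the other a-cell genes.

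Grouped by cell type, the 4 a-cell genes with enough counts had log2 ratios from -6.97 to -4.78 with a median of -5.28, and the 3 α-cell genes had log2 ratios from 4.12 to 7.21 with a median of 5.45. The 2 genes of both cell types lay at 1.65 and 2.67. Summed over all 5 a-cell genes, 67 counts in npl3Δ stood against 2311 in wild type, a ratio of 0.0208 (0.0161 to 0.0266). The 3 α-cell genes had 7357 counts in npl3Δ and 131 in wild type, a ratio of 40.4 (34.0 to 48.4). In npl3Δ, 4 of the 9 genes were at least 2-fold lower and the other 5 at least 2-fold higher, where 4.3% and 8.14% of all genes tested (263 and 498 genes) were. Without scaling between the libraries, which raises every log2 ratio by 0.48, 115 genes were lower and 1120 higher, and the 9 genes kept their sides. At a bound of 16-fold, the 4 genes remained on the lower side, beside 0.245% of all genes, and STE3, SAG1 and AFB1 on the higher side, beside 0.507%. Since the genes were chosen with these ratios known, nothing is read from these shares.

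**Figure D1:**
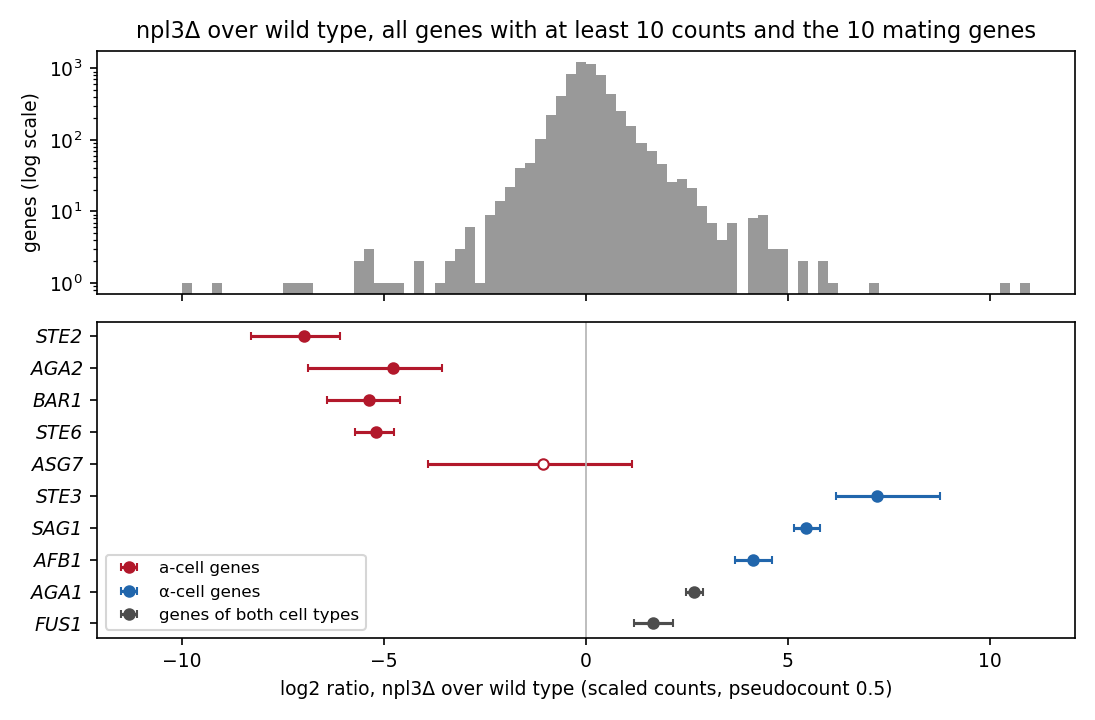
Distribution of the log2 ratio of npl3Δ over wild type for the 6118 genes with at least 10 counts (top, number of genes on a log axis) and the ratio of each of the 10 mating genes (bottom). Points give the ratio with the pseudocount, bars the 95% exact binomial interval of counting error without it, and the open point is ASG7, with 8 counts. The a-cell genes with enough counts lie at -4.78 or lower, the α-cell genes at 4.12 or higher.

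The α-cell genes led the order of the levels per length in npl3Δ and 4 of the a-cell genes led it in wild type. In npl3Δ, SAG1 was highest at 380 (370 to 391) RPKM, followed by AFB1 at 239, STE3 at 141, AGA1 at 130 and FUS1 at 20.1. The interval of STE3 overlapped that of AGA1, and the 5 a-cell genes below FUS1 lay between 0.713 and 2.27 with intervals that each overlapped the next. In wild type, STE2 was highest at 124 (116 to 134), followed by AGA2 at 71.0, STE6 at 57.5, BAR1 at 44.2, AGA1 at 20.4, AFB1 at 13.6, SAG1 at 8.64, FUS1 at 6.36, ASG7 at 1.65 and STE3 at 0.885. Here AGA2 and STE6 overlapped in their intervals, as did neighbours in the order from AGA1 to FUS1, and ASG7 with STE3.

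Set against the 6145 genes with an annotated length, SAG1 exceeded 96.1% of them in npl3Δ and 24.7% in wild type, and STE3 exceeded 91.8% in npl3Δ and 6.64% in wild type. STE2 exceeded 5.29% of them in npl3Δ and 90.0% in wild type. The genes of the opposite type were not equally low. In wild type, where the a-cell genes other than ASG7 were high, AFB1 exceeded 38.7% of genes and SAG1 24.7%, while none of the 5 a-cell genes in npl3Δ exceeded more than 8.58%. The highest of the 10 levels was 533 times the lowest in npl3Δ and 141 times in wild type.

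**Figure D2:**
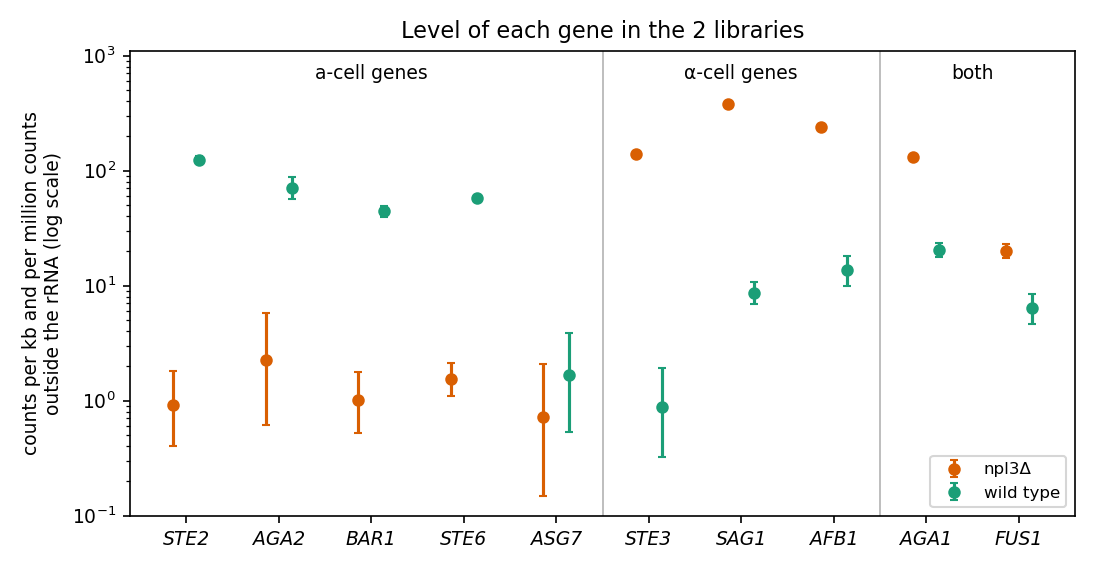
Level of the 10 mating genes in npl3Δ (left of each pair) and wild type (right), in RPKM (scaled to counts outside the rRNA) on a log axis. Points are the single library of each genotype and bars are 95% exact Poisson intervals of counting error. Bars of ASG7 overlap between the libraries, and those of the other 9 genes do not.

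Genes that mark the mating type and are not among the 10 moved with them. The a-factor genes MFA1 and MFA2 had 10 counts together in npl3Δ and 1316 in wild type, and the α markers MF(ALPHA)1, MF(ALPHA)2 and MATALPHA1 had 11523 counts in npl3Δ and 9 in wild type. In log2 ratios, the 2 a markers lay at -5.57 (MFA1) and -9.76 (MFA2), and the 3 α markers between 5.38 and 10.87. With 1 count in npl3Δ, MFA2 had a ratio between 1.84e-05 and 0.00406, and with 1 count in wild type, MF(ALPHA)2 had a ratio between 478 and 105391. The part of mating type in the values of the 10 genes and the part of the NPL3 deletion cannot be told apart in these libraries. The auxotrophic marker genes did not separate the libraries: LEU2, URA3 and MET15 were at 0 counts in both, HIS3 had 116 in npl3Δ and 88 in wild type (log2 ratio -0.08), and LYS2 had 690 in npl3Δ and 511 in wild type (-0.04).

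Among genes outside the 10 with at least 100 counts, the most extreme ratios were those of mating genes for 4 of 5 at the high end and 2 of 5 at the low end. The 5 highest log2 ratios belonged to MF(ALPHA)2 (10.87), MF(ALPHA)1 (10.26), BDF1 (6.18), MATALPHA1 (5.38) and HMLALPHA1 (4.91). The mating-type genes MATALPHA1 and HMLALPHA1 are near-identical copies, so the count of each is uncertain. The 5 lowest belonged to MFA2 (-9.76), NPL3 (-9.03), YDR433W (-7.38), which carries the next systematic number after NPL3, ADE17 (-5.58), an enzyme of purine synthesis, and MFA1 (-5.57). This likeness rests on 1 ratio of 2 libraries and says nothing of shared control.

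Downstream of the receptors, the genes of the signalling chain differed far less than the 10. The 18 genes that carry the signal include the G protein (GPA1, STE4, STE18) and the kinases STE20, STE11, STE7, FUS3 and KSS1. STE12 and its inhibitors DIG1 and DIG2 are also among them. None of the 18 was at least 2-fold higher or lower, beside 8.14% and 4.3% of all genes tested, and the median log2 ratio was 0.35. Without scaling 6 were higher, beside 1120 of the 6118 genes tested. SST2, which limits the response by acting on the Gα subunit, had 799 counts in npl3Δ and 292 in wild type (log2 ratio 0.98). STE12 had 397 in npl3Δ and 148 in wild type (0.95). The 11 haploid genes that a1-α2 represses in diploids, 7 of them also in the signalling list, had a median of 0.39. None was past 2-fold, and 3 were higher without scaling. In lists this short a count of 0 is near the shares of all genes tested, so nothing is read from these counts. The ratios of FUS1 (1.65) and AGA1 (2.67) lay above those of every gene of these lists, of which SST2 was highest at 0.98.

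Several genes induced by pheromone were higher in npl3Δ. Of 21 listed, 19 had at least 10 counts, and 9 of these (47.4%) were at least 2-fold higher and 1 at least 2-fold lower, beside 8.14% and 4.3% of all genes tested, with a median log2 ratio of 0.98 beside 0.02 over all genes. PRM3, which acts in nuclear fusion, had 16 counts in npl3Δ and 1 in wild type, a ratio with an interval of 1.79 to 482. FUS2, which acts beside FUS1 in cell fusion, had 135 counts in npl3Δ and 15 in wild type, a log2 ratio of 2.66 that is close to the 2.67 of AGA1. PRM1, needed for fusion of the plasma membranes, had 152 counts in npl3Δ and 28 in wild type (1.95). KAR4, a regulator of karyogamy genes, had 184 in npl3Δ and 55 in wild type (1.26). The single gene on the lower side was PRM10, with 5 counts in npl3Δ and 13 in wild type. FAR1, which arrests the cell cycle in response to pheromone, had 770 counts in npl3Δ and 504 in wild type (0.14), so the list did not move as one. Lists of this kind were drawn up with results of these libraries known, and nothing particular to the list is claimed.

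**Figure D3:**
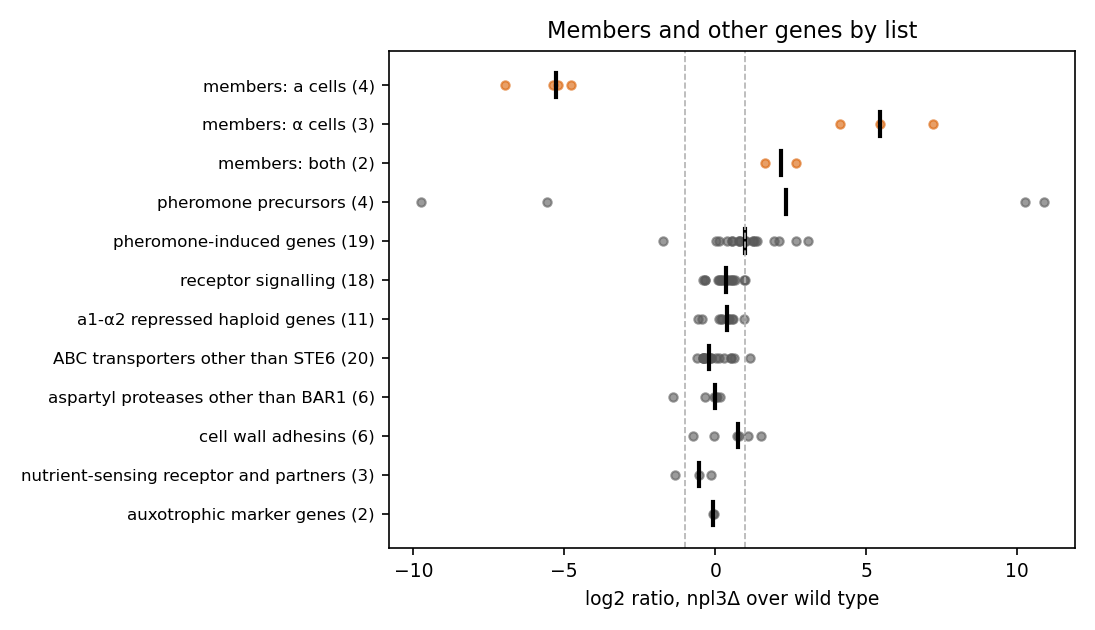
Log2 ratio of npl3Δ over wild type for the mating genes (orange) and for genes of other lists (grey), with the number of genes with at least 10 counts in parentheses. Points are genes, black bars are medians and dashed lines mark 2-fold. The a-cell and α-cell members and the pheromone precursors lie far outside the dashed lines, the 18 genes of receptor signalling within them.

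The 10 genes do not lie together. They are spread over 8 chromosomes, 4 on the plus strand and 6 on the minus strand, with gene lengths of 264 (AGA2) to 3873 bases (STE6). The 2 nearest genes with at least 10 counts on each side, 40 in all, had a median log2 ratio of -0.03, with 1 gene at least 2-fold higher and 2 at least 2-fold lower, beside 8.14% and 4.3% of all genes tested. STE3 (7.21) lies between COY1 at 0.78 and LST4 at 0.24. STE6 (-5.19) lies between UBA1 at 0.47 and CBT1 at -0.51. The gene beyond 2-fold that directly adjoined a member was GYP8, which encodes a GTPase-activating protein and had 34 counts in npl3Δ and 93 in wild type (-1.91). It is transcribed away from STE2, with 667 bases between the genes. The others were AGP1, 2 genes from FUS1, at -2.06, and LSO1, 2 genes from SAG1, at 2.24.

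No gene of the RefSeq annotation overlaps any of the 10. The count table also lists features without a RefSeq entry whose systematic number is next to that of a member, namely YKL177W (by STE3) with 1 count in npl3Δ and 4 in wild type, YLR041W (by AFB1) with 1 in npl3Δ and 3 in wild type, and YJL169W (by ASG7) with 2 in npl3Δ and 1 in wild type. How far these features overlap the members, and how reads that fell into both were counted, is not given in the sources used here.

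**Figure D4:**
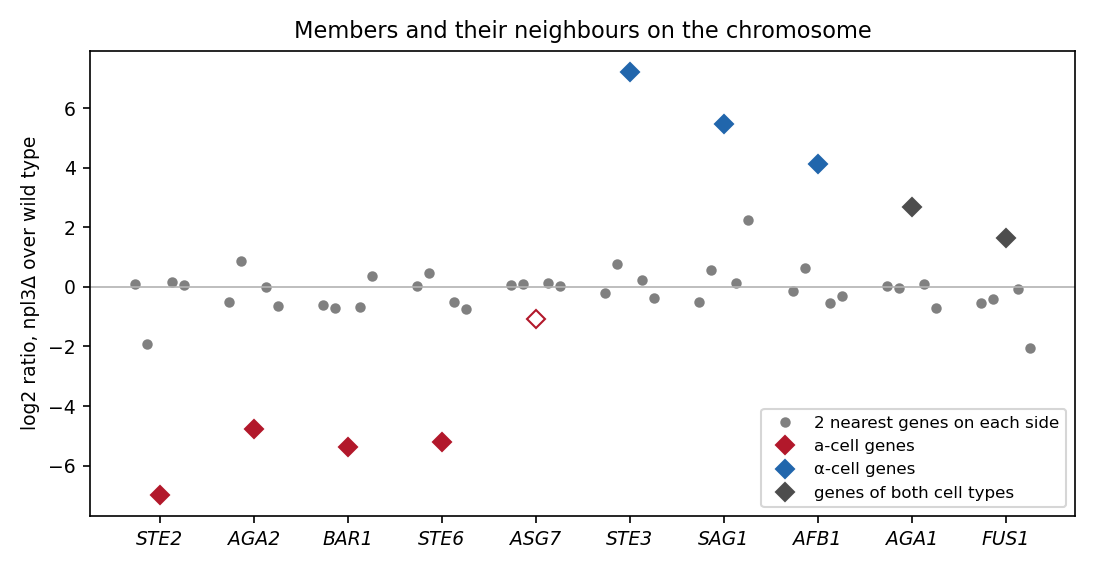
Log2 ratio of npl3Δ over wild type for each of the 10 genes (diamonds) and for the 2 nearest genes on either side with at least 10 counts (grey points, in chromosome order). The open diamond is ASG7, with 8 counts. Of the 40 neighbours, 3 lie beyond 2-fold, while all 9 filled diamonds do.

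The promoters shown above were searched for the 4 motifs on both strands, from 250 bases before to 50 bases after the start codon, as were the same windows of 6001 protein-coding nuclear genes. The α2 half-site was found for 4 of the 5 a-cell genes (all but AGA2), 1 of the 3 α-cell genes (SAG1) and neither gene of both cell types, against 3.67% of all promoters. The pheromone response element was found for STE2, AGA2, BAR1, STE6, AGA1 and FUS1 and for none of the α-cell genes, against 7.50%. The Mcm1 box is a loose motif, held by 29.2% of all promoters, and was found for STE2, STE6, ASG7 and AFB1. The α1 site was found for SAG1, in this window only at base 40 of the coding sequence, against 5.45% of all promoters. The sites printed above for SAG1, STE3, AGA2 and BAR1 lie wholly or in part farther upstream, at 270, 340, 298 and 264 bases before the start. The longer window of 500 bases, which was chosen after these positions had been seen, held them. This longer window also held the pheromone response element for ASG7 and for the α-cell gene SAG1, against 13.35% of all promoters.

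Read as a pair, with the first base of the Mcm1 box 10 or 11 bases after that of the α2 half-site, the operator was rare. It was found in the 500-base windows of 9 of 6000 genes (0.15%), and 5 of the 9 were the a-cell genes STE2, AGA2, BAR1, STE6 and ASG7. A further 2 were MFA1 and MFA2, the genes for a-factor. The remaining 2 were GYP8 and MOG1. GYP8 shares its upstream region with STE2, so that its match at 445 bases before the start is the STE2 operator read from the other side, and it had the lower count in npl3Δ given above. MOG1, with the pair 348 bases before its start, had 48 counts in npl3Δ and 42 in wild type (log2 ratio -0.28). Of the 9 genes with the pair, 7 thus had log2 ratios from -9.76 to -1.91, while ASG7, with 8 counts, and MOG1 did not go below -1.07. Of the 7, 4 are members chosen with their counts known. The spacing of the pair was also chosen after its positions had been seen in the a-cell genes. A match is a description of the letters and not of binding, and the part of these operators in the values was not tested.

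**Figure D5:**
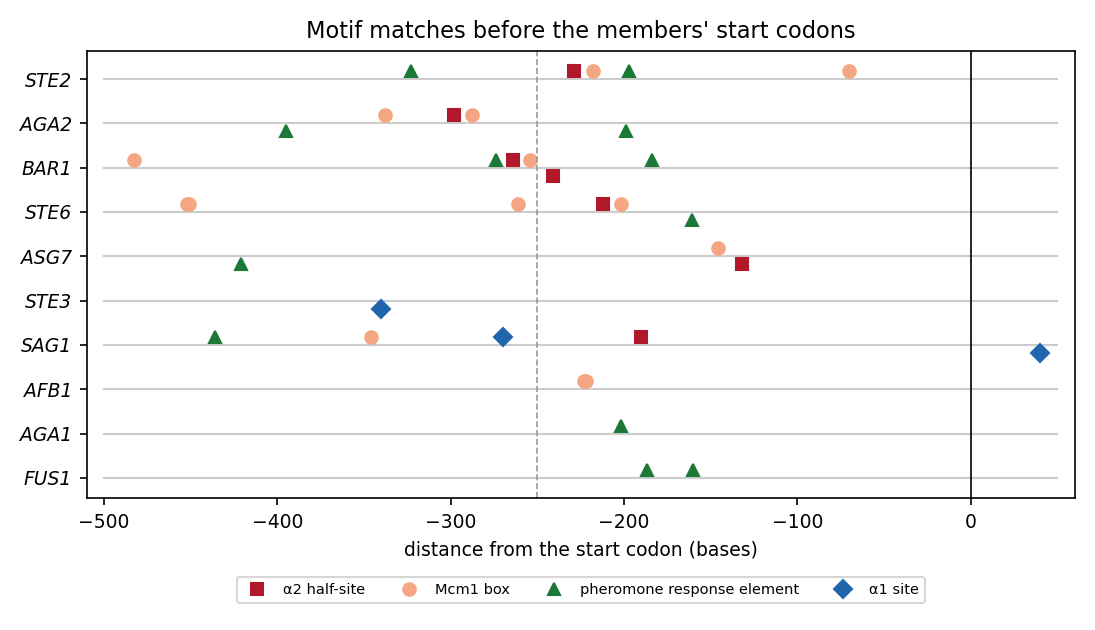
Motif matches around the start codons of the 10 genes, by the distance of the first base of the match from the start codon (solid line at 0, dashed line at 250 bases before it). Matches on the strand of the gene are drawn above each grey line and those on the other strand below. The 5 a-cell genes in the top rows each show an α2 half-site (red square) beside an Mcm1 box (orange circle), and FUS1 and AGA1 in the bottom rows show pheromone response elements (green triangles).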

How the data were processed

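RNA-seq of 1 npl3Δ and 1 wild type library was used. Per the study's methods and the submitters' processing notes, the authors mapped reads with HISAT2 to sacCer3 (R64) and counted them with featureCounts, and they deposited raw counts per feature without normalization. Versions are not given in the sources used here. The deposited coverage of the 35S rRNA was not used. Of the 7127 features, 6047 matched RefSeq R64 by locus tag, 122 by symbol, and 958 did not match. The 22 rRNA features and 2 features inside the 35S rRNA were left out of the library sizes (1.66% of table counts remained in npl3Δ and 1.14% in wild type). Reads of the rRNA may be listed more than once, which is why the table total was used only as an alternative.

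Log2 ratios used scaled counts plus a pseudocount of 0.5, and were read over 6118 genes whose counts in both libraries summed to 10 or more. A fold on this scale understates the change of genes with few counts. Intervals of ratios are exact and binomial (Clopper-Pearson, conditional on the summed counts), and those of levels are exact and Poisson. No p-values are given, because there was 1 library per genotype. The members, lists and motifs were chosen with earlier results of these data known. The genes named were the 10 members, NPL3, list genes past 2-fold with at least 10 counts where a sentence turns on them, the 5 highest and 5 lowest other ratios among genes with at least 100 counts, and 5 auxotrophic marker genes. SST2, STE12, FAR1, MOG1, HMRA1, the genes that stand as examples of a family and the neighbours were named after their values were seen. Alternatives were edgeR 4.0.16 and DESeq2 1.42.0 scaling, other library sizes, pseudocounts, filters, neighbours and promoter windows. The code was run on simulated Poisson counts, which hold only the counting error that the intervals assume. Such counts have no PCR copies and no spread between cultures, so they say nothing of these. The scripts ran under Python 3.11.15 with scipy 1.17.1 and numpy 2.4.6, tables were handled in pandas 2.3.3, and plots were drawn with matplotlib 3.10.9.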

Additional observations from a re-analysis of the deposited data

How the results depend on the processing

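No paired analysis was possible because there was 1 library per genotype. All 9 genes with enough counts kept their direction and stayed past 2-fold under every scaling, pseudocount and filter tried, except that AGA2, with 94 counts in both libraries, was left out at a minimum of 100. The a-cell median ranged from -5.37 to -4.74 and the α-cell median from 5.39 to 5.996. The α-cell median moved beyond counting error to 5.93 without scaling and to 5.996 when scaled by the table total, which shift all log2 ratios by 0.48 and 0.55. The same settings raised the number of pheromone-induced genes at least 2-fold higher to 15 each, and that of signalling genes, 0 in the main setting, to 6 and 7. Of the a1-α2 repressed genes, 3 and 4 were then past 2-fold, and 1 without ATG26 and BDF1. Without ATG26 and BDF1 in the library size all log2 ratios shift by 0.24, and 2 signalling genes pass 2-fold. Over all genes tested 737 were then at least 2-fold higher. The counts of the lists rose along with those of all genes under these settings, so nothing is read from them about the lists. Leaving out genes under 100 counts gave 141 genes lower and 209 higher, against 263 and 498, because fewer genes were tested, and with no minimum beyond 1 count 844 were higher. Genes at least 2-fold lower and higher numbered 115 and 1120 without scaling, and 111 and 1290 with the table total. Genes at least 16-fold higher numbered 12 and 8 with pseudocounts of 1 and 5, against 31. Of the motifs, the α1 site was found for 0 members when the bases after the start were left out. In the 500-base window the α1 site was found for 2 members, the Mcm1 box for 7 and the pair for 5, against 1, 4 and 3. Of all promoters, 9.72%, 53.15% and 0.15% held them in that window. The pheromone response element was found there for 8 members against 6, and the α2 half-site for 6 against 5. Of all promoters, 13.35% and 6.68% held these. The low counts of ASG7, of AGA2 and STE2 in npl3Δ, and of STE3 in wild type, give the widest intervals.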

Other observations

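Gene families to which the mating genes belong by the kind of protein they encode are given here beside all genes tested, of which 8.14% were at least 2-fold higher and 4.3% at least 2-fold lower, with a median log2 ratio of 0.02. Without scaling all log2 ratios are 0.48 higher, which turns the negative medians of the ABC transporters and the proteases, and the value of GPR1, positive and ends the calls of YPS3 and RGS2. Of 20 ABC transporter genes other than STE6, 1 was at least 2-fold higher in npl3Δ and none lower, with a median log2 ratio of -0.19. Without scaling 2 were higher, and 4 with the table total, beside 1120 and 1290 of the 6118 genes tested. The one was PXA1, a peroxisomal transporter subunit, with 77 counts in npl3Δ and 25 in wild type (1.13). Of 6 aspartyl protease genes other than BAR1 with at least 10 counts, 1 was at least 2-fold lower, YPS3, with 33 counts in npl3Δ and 63 in wild type (-1.39), and the median was -0.01. GPR1, which encodes a nutrient-sensing receptor coupled to a G protein like STE2 and STE3, had 197 counts in npl3Δ and 158 in wild type (-0.16). Of its 2 partners, RGS2 was at least 2-fold lower, with 13 counts in npl3Δ and 24 in wild type (-1.32), and the median of the 3 genes was -0.56. Neither YPS3 nor RGS2 had 100 counts in the libraries together.

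Among 6 genes for cell wall adhesins other than the agglutinins, FLO9 (379 counts in npl3Δ and 96 in wild type, log2 ratio 1.50) and FLO1 (534 counts in npl3Δ and 179 in wild type, 1.10) were at least 2-fold higher, and the median was 0.76. Without scaling 4 of the 6 were at least 2-fold higher, beside 1120 of the 6118 genes tested. FLO5, a close relative of both, had 170 counts in npl3Δ and 204 in wild type (-0.74). These genes are similar in sequence, so the count of each is uncertain. FIG2, a pheromone-induced relative of AGA1, had 760 counts in npl3Δ and 316 in wild type (0.79).

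HMRA1, a silent copy of the a-type mating-type gene, had 0 counts in npl3Δ and 61 in wild type. Against a floor of 3 counts in the npl3Δ library this was at least 28.3-fold lower. HMRA1 was named after its values were seen. Reads from a near-identical copy at an active mating-type locus cannot be told apart from its own, so its count is uncertain. The 61 counts in wild type therefore do not show expression of the silent copy.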
